A study of Homo sapiens with 9 samples.

Results

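The MHC class I and peptide loading genes were described as a set of 9 named genes, chosen by symbol: HLA-B, HLA-C, B2M, TAP1, TAP2, PSMB8, PSMB9, ERAP1 and ERAP2. All 9 had a row among the 17529 genes of the table, and all 9 passed the filter on low counts, as did 13129 genes in all. The 9 RNA-seq libraries come from NCI-H69, by its label a line of small cell lung cancer, harvested 48 hours after siRNA transfection. The 3 groups of 3 biological replicates received an siRNA against CSNK2B, the regulatory subunit gene of the protein kinase CK2 (si_CSNK2B), an siRNA against P300, an acetyltransferase of histones and transcription factors whose gene is EP300 (si_P300), or a negative control siRNA (NC). All groups were transfected, and the number of siRNA sequences per target is not given in the sources used here. The labels call the replicates biological and do not say whether each was a separate culture, so p-values measure the spread between these samples.

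MHC class I molecules show peptides from inside the cell to CD8 T cells. The proteasome cuts proteins into peptides, the transporter TAP moves them into the endoplasmic reticulum, aminopeptidases trim them there, and each is bound by a heavy chain paired with beta-2-microglobulin before the complex travels to the surface. Interferon-gamma induces most genes of this pathway, and small cell lung cancer is known for low class I expression.

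Library depth was 13.1 to 18.3 M counts. Levels across libraries are in CPM (read counts scaled to the TMM-adjusted library size), where a gene with no count could still lie at 0.165 to 0.223 CPM, depending on the library and for counting error only. The targeted transcripts did not pass the test against NC, and each read as low in the group that received the other siRNA. CSNK2B read 168, 149 and 139 CPM in si_CSNK2B and 158, 148 and 163 CPM in si_P300, against 193, 168 and 185 CPM in NC. Its log2 fold change was -0.26 ± 0.104 in si_CSNK2B (edgeR adjusted p = 0.0732) and -0.22 ± 0.104 in si_P300 (edgeR adjusted p = 0.137). EP300 read 40.1, 32.9 and 37.3 CPM in si_P300 and 32.4, 39.4 and 40.6 CPM in si_CSNK2B, against 41.8, 50.8 and 43.0 CPM in NC. Its log2 fold change was -0.30 ± 0.127 in si_P300 (edgeR adjusted p = 0.101) and -0.27 ± 0.127 in si_CSNK2B (edgeR adjusted p = 0.119). Between si_CSNK2B and si_P300 the difference was -0.04 ± 0.104 for CSNK2B and 0.03 ± 0.128 for EP300 (edgeR adjusted p = 0.992 and 0.993). The mRNA of neither target was thus shown to differ between the 2 siRNA groups, and protein was not analysed here. Neuroendocrine markers that define the labelled cell type were low, with NCAM1 at no more than 0.0743 CPM, CHGA at no more than 0.245 CPM, DLL3 at no more than 0.428 CPM and SYP at 0.524 to 1.16 CPM in the single libraries. NEUROD1, INSM1 and GRP were not analysed here, and group labels are used as names throughout. On the second component of a principal component analysis of 1000 genes (10.8% of the variance), si_P300 replicate 1 stood apart at 22.7, with si_P300 replicate 2 at -13.4 and the other 7 libraries at -7.29 to 3.72. Fold changes of the 9 genes that involve si_P300 are given below also without each of these 2 libraries. The 9 leukocyte markers, of which CD3E and MS4A1 were not analysed here, summed to 7.28 to 8.08 CPM in si_CSNK2B, 6.30 to 7.81 CPM in si_P300 and 5.997 to 6.93 CPM in NC. CD68 at 4.28 to 6.40 CPM made up most of that sum, followed by PTPRC at 0.385 to 1.16 CPM and ITGAM at 0.323 to 1.78 CPM. CD14 had at most 7 counts in a library, and CD3D and NKG7 at most 1. The part of these transcripts in the results was not tested. HLA-DRA, the class II chain of professional antigen-presenting cells, had at most 1 count as well. In bulk RNA, fewer cells that express a gene and less of its RNA per cell cannot be told apart.

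The promoters of the 6 members that passed the test in at least 1 comparison are shown because they hold, or lack within the bases read, 1 sequence in common. RefSeq windows of GRCh38.p14 were read from 250 bases before to 30 bases after each annotated start, and all 9 members matched, with 13 windows among them. Capitals mark the core of the interferon-stimulated response element (ISRE), which interferon regulatory factors bind: GAAA, any 2 bases, then GAAA, on either strand. Where a gene has 2 windows, the one with the motif is printed.
TAP1, chr6:32853675-32853954, minus strand: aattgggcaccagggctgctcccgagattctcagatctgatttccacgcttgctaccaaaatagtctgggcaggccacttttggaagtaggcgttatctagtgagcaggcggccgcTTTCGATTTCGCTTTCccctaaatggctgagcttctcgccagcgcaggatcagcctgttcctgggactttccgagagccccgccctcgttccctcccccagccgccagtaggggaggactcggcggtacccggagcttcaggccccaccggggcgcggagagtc
PSMB9, chr6:32853942-32854221, plus strand: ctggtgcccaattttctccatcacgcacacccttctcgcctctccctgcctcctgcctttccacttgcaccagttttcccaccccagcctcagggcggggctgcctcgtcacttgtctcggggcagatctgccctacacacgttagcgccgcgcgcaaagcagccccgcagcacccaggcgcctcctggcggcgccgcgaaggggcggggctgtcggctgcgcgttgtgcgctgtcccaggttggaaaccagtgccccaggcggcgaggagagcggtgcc
PSMB8, chr6:32844018-32844297, minus strand: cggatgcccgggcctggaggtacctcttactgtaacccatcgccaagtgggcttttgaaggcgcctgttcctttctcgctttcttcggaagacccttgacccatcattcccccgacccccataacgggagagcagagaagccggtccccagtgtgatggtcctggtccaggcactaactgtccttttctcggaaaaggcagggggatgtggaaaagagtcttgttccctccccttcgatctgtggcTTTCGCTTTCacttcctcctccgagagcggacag
TAP2, chr6:32838710-32838989, minus strand: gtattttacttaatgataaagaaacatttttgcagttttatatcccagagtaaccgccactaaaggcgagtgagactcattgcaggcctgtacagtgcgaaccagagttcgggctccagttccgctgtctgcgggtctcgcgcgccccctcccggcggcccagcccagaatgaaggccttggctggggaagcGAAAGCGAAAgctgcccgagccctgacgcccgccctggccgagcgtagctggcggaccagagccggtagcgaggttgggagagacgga
ERAP1, chr5:96807916-96808195, minus strand: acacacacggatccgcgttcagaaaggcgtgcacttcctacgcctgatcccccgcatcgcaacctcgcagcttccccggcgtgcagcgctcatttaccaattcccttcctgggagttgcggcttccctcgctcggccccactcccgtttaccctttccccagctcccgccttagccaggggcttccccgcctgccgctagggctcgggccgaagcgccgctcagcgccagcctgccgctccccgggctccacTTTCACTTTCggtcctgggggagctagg
ERAP2, chr5:96876250-96876529, plus strand: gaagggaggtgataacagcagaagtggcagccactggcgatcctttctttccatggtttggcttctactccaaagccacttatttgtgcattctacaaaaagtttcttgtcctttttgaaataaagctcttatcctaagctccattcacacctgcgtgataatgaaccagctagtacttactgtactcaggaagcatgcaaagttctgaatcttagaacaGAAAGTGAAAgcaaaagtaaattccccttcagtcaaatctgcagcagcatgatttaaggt

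The ISRE core lay in at least 1 window of 6 of the 9 members: TAP1, TAP2, PSMB8, ERAP1, ERAP2 and B2M. Counted by window, 6 of the 13 held it, against 3.39% of 35116 windows of the same length over all genes. TAP1 held 2 overlapping copies from -134 to -119 relative to its start, and B2M held 2 overlapping copies from -144 to -129. In TAP2 it lay from -58 to -49, in ERAP2 from -30 to -21, in PSMB8 from -4 to 6 and in ERAP1 from 3 to 12, across or just past the start. The windows of PSMB9, HLA-B and HLA-C did not hold these exact letters. Sites that depart from them were not looked for, so these promoters are not shown to lack an ISRE. A kappa B motif (GGGA, any 2 bases, then TTCC, either strand, 1.51% of windows) was found in TAP1 from -72 to -63 and in B2M from -125 to -116, and a GC box (GGGCGG, either strand, 44.1% of windows) in TAP1, TAP2, PSMB9 and HLA-C. The interferon-gamma activated site (TTCNNNGAA, 7.30% of windows) was found in the second window of TAP1, which is not printed, and in that of PSMB8. The motifs were chosen after the members' values were seen, and a match describes the letters only.

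Of the 9 genes, 6 lie in the MHC on chromosome 6 (GENCODE 29, GRCh38). TAP2 (32821833 to 32838780), PSMB8 (32840717 to 32844703), TAP1 (32845209 to 32853978) and PSMB9 (32844136 to 32859585) are neighbours, all on the minus strand except PSMB9. The printed windows of TAP1 and PSMB9 overlap at their upstream ends, since the genes run in opposite directions from a shared stretch. The ISRE copies of TAP1 lie in that stretch, beyond the 250 bases read before the PSMB9 start. Whether PSMB9 is said to lack the core thus depends on the window length. HLA-C (31268749 to 31272130) and HLA-B (31269491 to 31357188) are on the minus strand, and the annotated span of HLA-B overlaps that of HLA-C. B2M lies on chromosome 15 (44711487 to 44718877, plus strand), and ERAP1 (96760810 to 96808100, minus strand) and ERAP2 (96875939 to 96919716, plus strand) lie 67838 bases apart on chromosome 5. Exons of PSMB8 and TAP1 overlap the antisense gene PSMB8-AS1, exons of PSMB9 overlap PSMB8, and exons of ERAP1 overlap CAST, so these counts are uncertain to that extent where reads were counted without strand. Of the 50-base words of the longest coding transcript, 2.54% in HLA-B and 6.71% in HLA-C also occur in transcripts of other genes, chiefly other class I genes. For TAP2 it was 35.8%, all shared with the overlapping gene AL669918.1, and for PSMB9 12.1%, with PSMB8-AS1. HLA genes vary between individuals, so reads of alleles that differ from the reference genome may be lost, and levels of HLA-B and HLA-C are uncertain for that reason too.

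Levels of different genes are compared in TPM, which is scaled by gene length. B2M, the invariant light chain, was the most abundant member at 2314 ± 493 TPM in si_CSNK2B, 2616 ± 543 TPM in si_P300 and 1857 ± 119 TPM in NC (SD, n = 3 each). It ranked between place 30 and place 84 of all 17529 genes in the single libraries. HLA-B, a classical heavy chain, followed at 509 ± 49.2 TPM in si_CSNK2B, 679 ± 167 TPM in si_P300 and 535 ± 18.1 TPM in NC. PSMB8, HLA-C and TAP1 made up the middle. PSMB8 stood at 83.1 ± 5.86, 107 ± 17 and 73.0 ± 4.60 TPM in si_CSNK2B, si_P300 and NC, HLA-C at 73.5 ± 7.74, 90.4 ± 18.2 and 71.9 ± 1.70 TPM, and TAP1 at 61.2 ± 8.22, 77.4 ± 16.7 and 49.7 ± 2.08 TPM. The libraries of PSMB8 and HLA-C overlapped in all 3 groups, so their order is not fixed, while TAP1 lay clear of HLA-C in NC alone. TAP2, PSMB9 and ERAP2 came next, and ERAP1 was lowest in each group, at 8.35 ± 1.15 TPM in si_CSNK2B, 12.4 ± 0.267 TPM in si_P300 and 10.8 ± 0.599 TPM in NC. PSMB9 and ERAP2 overlapped in NC (17.9 ± 2.13 and 20.1 ± 2.12 TPM), whereas PSMB9 lay above ERAP2 in si_CSNK2B (25.9 ± 2.62 and 16.5 ± 1.96 TPM) and in si_P300 (31.9 ± 7.08 and 24.2 ± 1.70 TPM).

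**Figure D1:**
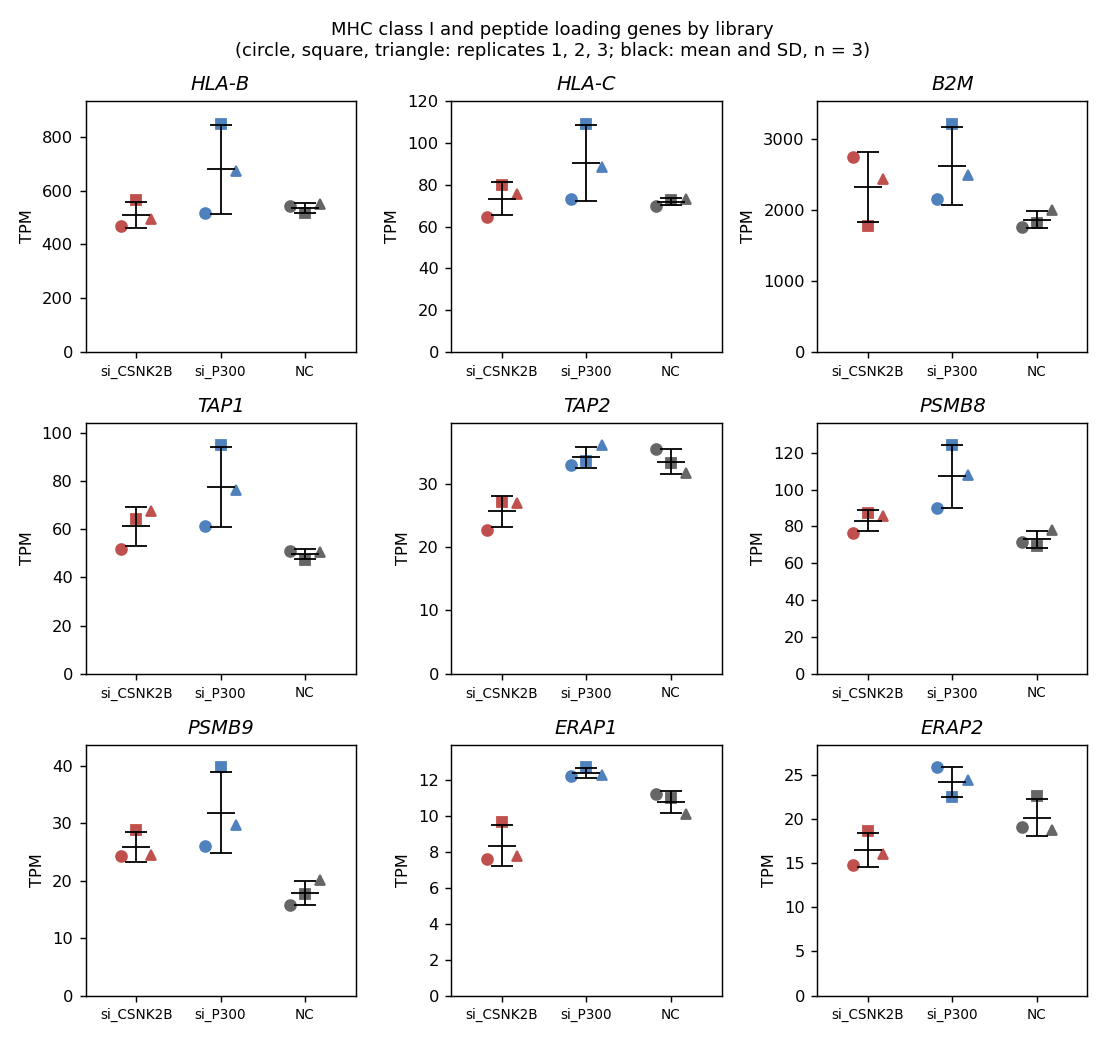
Level of each gene in TPM (vertical axis, from 0) in si_CSNK2B, si_P300 and NC, with 1 point per library and the mean and SD of 3 libraries in black. The square of si_P300 replicate 2 is the highest point for HLA-B (849 TPM), HLA-C (109 TPM), B2M (3211 TPM), TAP1 (94.8 TPM), PSMB8 (124 TPM) and PSMB9 (39.8 TPM), while ERAP1 and ERAP2 are lowest in si_CSNK2B.

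The first comparison asks how these genes differed in cells that received the siRNA against CSNK2B. In si_CSNK2B against NC, TAP2, ERAP1 and ERAP2 fell and no member rose. TAP2, a subunit of the peptide transporter, stood at 0.79-fold its NC level (95% interval 0.683 to 0.920), ERAP1, the main trimming aminopeptidase of the endoplasmic reticulum, 0.75-fold (0.630 to 0.898), and its partner ERAP2 0.79-fold (0.671 to 0.935). The heavy chains, B2M, TAP1 and both immunoproteasome subunits did not pass. These 3 of 9 compare with 17.8% of all 13129 tested genes that were lower and 16.2% that were higher (edgeR quasi-likelihood test, adjusted p under 0.05 over all tested genes), or 34.0% called in either direction, so the share of members called is close to that of all genes. The libraries of 5 of 9 members did not overlap those of NC, TAP1 and PSMB9 all higher and TAP2, ERAP1 and ERAP2 all lower, against 53.0% of all genes (26.2% all higher, 26.8% all lower). The members' median log2 fold change was -0.02, against 0.04 over all tested genes. When only library sizes were used for scaling, without TMM, the median of all genes moved to 0.16, the calls were 3316 higher and 1705 lower in place of 2124 and 2338, the 3 falls did not pass (edgeR adjusted p of 0.0671 to 0.151), and PSMB9 passed as higher.

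The second comparison asks the same of the siRNA against P300. In si_P300 against NC, TAP1, PSMB8 and PSMB9 rose and no member fell. PSMB9, an immunoproteasome subunit, stood at 1.71-fold its NC level (95% interval 1.29 to 2.27), TAP1, the other transporter subunit, 1.49-fold (1.17 to 1.90) and PSMB8, a second immunoproteasome subunit, 1.41-fold (1.15 to 1.73). The 3 genes lie together on chromosome 6, where the annotated span of PSMB9 contains TAP1 and overlaps PSMB8, and they neighbour TAP2, which read 1.01-fold (0.868 to 1.17). Over all tested genes 13.6% were higher and 14.7% lower (edgeR, the same threshold), 28.3% in either direction, so 3 of 9 is again near the share of all genes. The libraries of 4 of 9 members lay all above those of NC (TAP1, PSMB8, PSMB9 and ERAP1) and those of none all below, against 46.5% of all genes without overlap (22.8% all higher, 23.8% all lower). All 9 members had a positive log2 fold change, as had 53.8% of all tested genes, and the members' median was 0.29 against 0.04 over all tested genes. TAP2, the smallest at 0.0093, turned negative in 7 of 19 alternatives, among them DESeq2 (-0.0083), no filter (-0.016), and the fit without si_P300 replicate 2 or 3 or NC replicate 2 or 3. Without si_P300 replicate 1, HLA-B, HLA-C and B2M passed beside TAP1, PSMB8 and PSMB9, and without si_P300 replicate 2 PSMB9 alone passed. With library sizes alone the median of all genes moved to 0.15, the calls were 2760 higher and 1424 lower in place of 1783 and 1926, and B2M and ERAP2 passed as well, as higher. Both comparisons use the same 3 NC libraries, so their values are not independent.

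The direct contrast asks whether the 2 siRNA groups differ from each other. In si_CSNK2B against si_P300 no member passed by edgeR, and none of the 13129 genes did (0%). The libraries of TAP2, ERAP1 and ERAP2 were all lower in si_CSNK2B than in si_P300 and those of no member all higher, against 7.14% of all genes without overlap (3.83% all lower, 3.31% all higher). At an unadjusted p under 0.05 there were 5 of 9 members (HLA-B, TAP2, PSMB8, ERAP1 and ERAP2) and 5.03% of all genes. DESeq2, run as an alternative, called 8 genes (0.0610% of 13124), and ERAP1 and ERAP2 were 2 of them. Against NC it called 3 members in si_CSNK2B (35.5% of all genes) and 3 in si_P300 (30.5%). ERAP1 had a log2 fold change of -0.57 ± 0.134 and ERAP2 of -0.53 ± 0.121 by DESeq2 (adjusted p = 0.0405 and 0.0283), against -0.57 ± 0.117 and -0.54 ± 0.110 by edgeR (adjusted p = 0.715 for both). All 9 members had a negative log2 fold change in this contrast, from -0.57 to -0.16, as had 53.7% of all genes, with a median of -0.34 against -0.02 over all genes. The sign did not hold for B2M, which was positive without si_CSNK2B replicate 2 (0.0013) or without si_P300 replicate 2 (0.0416). Without si_P300 replicate 2 the differences were smaller for PSMB9 (-0.07), HLA-C (-0.10), TAP1 (-0.13), HLA-B (-0.19) and PSMB8 (-0.21), and stood at -0.33 for TAP2, -0.53 for ERAP1 and -0.57 for ERAP2. Without si_P300 replicate 1 the 9 values ran from -0.61 for ERAP1 to -0.30 for B2M.

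**Figure D2:**
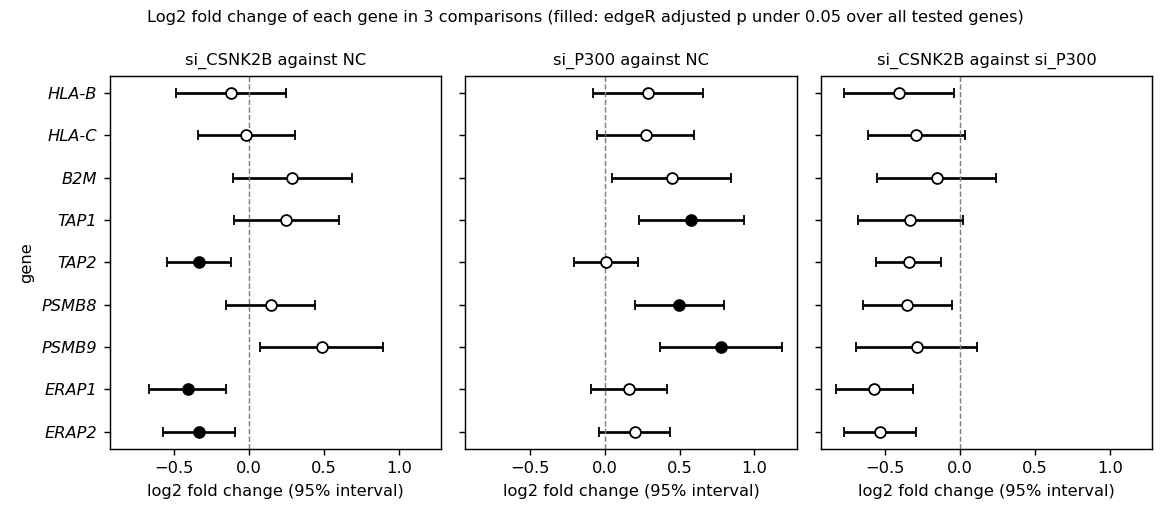
Log2 fold change with its 95% interval (horizontal axis) for each gene in the 3 comparisons, where filled points passed an edgeR adjusted p of 0.05 over all tested genes. TAP2, ERAP1 and ERAP2 are filled on the left of 0 in si_CSNK2B, TAP1, PSMB8 and PSMB9 on the right of 0 in si_P300, and no point is filled in the direct contrast.

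The heavy chains hold the peptide. HLA-B read 399, 460 and 391 CPM in si_CSNK2B replicates 1 to 3, 403, 712 and 545 CPM in si_P300, and 460, 426 and 474 CPM in NC. The si_CSNK2B range overlapped that of NC, and si_P300 had 1 library below and 2 above all of NC. The log2 fold change of HLA-B was -0.12 ± 0.168 in si_CSNK2B (edgeR adjusted p = 0.602) and 0.29 ± 0.168 in si_P300 (edgeR adjusted p = 0.222). HLA-C, which also serves as a ligand of receptors on natural killer cells, read 55.2, 65.3 and 60.3 CPM in si_CSNK2B, 57.3, 92.0 and 72.2 CPM in si_P300, and 59.7, 60.2 and 63.2 CPM in NC. It showed the same arrangement, with si_P300 replicate 1 below NC and replicates 2 and 3 above. Its log2 fold change was -0.02 ± 0.149 in si_CSNK2B (edgeR adjusted p = 0.934) and 0.27 ± 0.149 in si_P300 (edgeR adjusted p = 0.191). Without si_P300 replicate 1, HLA-B passed at 0.47 (edgeR adjusted p = 0.0169, where 19 alternatives spanned 0.0169 to 0.768) and HLA-C at 0.43 (edgeR adjusted p = 0.0206, alternatives 0.0206 to 0.653). Without si_P300 replicate 2 they stood at 0.06 and 0.08. The ratio of HLA-B to HLA-C in TPM stayed between 6.50 and 7.25 in si_CSNK2B, 7.06 and 7.76 in si_P300, and 7.09 and 7.74 in NC.

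B2M, the light chain that every class I heavy chain needs to reach the surface, read 1424, 900.1 and 1200.0 CPM in si_CSNK2B, 1042, 1648 and 1241 CPM in si_P300, and 918, 919 and 1048 CPM in NC. Its libraries varied more within both siRNA groups than within NC, and si_CSNK2B replicate 2 was the lowest of all 9. The coefficient of variation was 22.4% in si_CSNK2B and 23.6% in si_P300, against 7.78% in NC. Its log2 fold change was 0.29 ± 0.183 in si_CSNK2B (edgeR adjusted p = 0.240), with 0.13 without si_CSNK2B replicate 1 and 0.45 without si_CSNK2B replicate 2 (edgeR adjusted p = 0.636 and 0.0828), and 0.45 ± 0.183 in si_P300 (edgeR adjusted p = 0.0889). It passed in si_P300 without si_P300 replicate 1 (0.59, edgeR adjusted p = 0.0250, where 19 alternatives spanned 0.0250 to 0.315) and was 0.25 without si_P300 replicate 2.

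TAP1 and TAP2 form the transporter as a heterodimer. TAP1 read 69.9, 81.8 and 83.9 CPM in si_CSNK2B, 74.9, 125 and 96.9 CPM in si_P300, and 68.0, 61.8 and 68.7 CPM in NC. All 6 libraries of the siRNA groups lay above all NC libraries, which held, for higher libraries, for 26.2% of all genes in si_CSNK2B and 22.8% in si_P300. The log2 fold change was 0.25 ± 0.160 in si_CSNK2B (edgeR adjusted p = 0.250) and 0.58 ± 0.160 in si_P300, which passed (edgeR adjusted p = 0.0189), and 0.74 there without si_P300 replicate 1. TAP2 read 48.2, 52.7 and 53.0 CPM in si_CSNK2B, 60.1, 66.1 and 69.3 CPM in si_P300, and 68.0, 63.7 and 62.4 CPM in NC. The si_CSNK2B libraries were the lowest 3 of all, and the si_P300 range overlapped that of NC. It fell in si_CSNK2B (-0.34 ± 0.0984, edgeR adjusted p = 0.0210) and was 0.01 ± 0.0978 in si_P300 (edgeR adjusted p = 0.953), or 0.06 without si_P300 replicate 1 and -0.0025 without si_P300 replicate 2. In TPM the ratio of TAP1 to TAP2 was 2.28, 2.37 and 2.50 in si_CSNK2B and 1.87, 2.82 and 2.11 in si_P300, against 1.44, 1.42 and 1.60 in NC. Neither siRNA group overlapped NC, with a difference in log2 ratio of 0.68 in si_CSNK2B and 0.59 in si_P300 (0.72 without si_P300 replicate 1 and 0.42 without si_P300 replicate 2). Each two-sided exact permutation test gave p = 0.1, the smallest that 3 against 3 allows, and 0.214 adjusted over 15 ratio comparisons. The call of TAP1 in si_P300 was lost without si_P300 replicate 2 (0.38, edgeR adjusted p = 0.0573) or without NC replicate 1, 2 or 3 (0.0559, 0.0824 and 0.0550, where 19 alternatives spanned 0.00109 to 0.0824). That of TAP2 in si_CSNK2B was lost without si_CSNK2B replicate 1, NC replicate 1 or NC replicate 3 (edgeR adjusted p = 0.0599, 0.0931 and 0.0517, within 0.00719 to 0.111).

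PSMB8 and PSMB9 replace constitutive catalytic subunits, PSMB5 and PSMB6, when the immunoproteasome is assembled, which changes the peptides it yields. PSMB8 read 48.3, 52.6 and 50.8 CPM in si_CSNK2B, 52.0, 77.0 and 65.1 CPM in si_P300, and 44.9, 42.4 and 50.0 CPM in NC. All si_P300 libraries lay above NC, and si_CSNK2B overlapped it. PSMB9 read 13.5, 15.4 and 12.7 CPM in si_CSNK2B, 13.3, 21.8 and 15.8 CPM in si_P300, and 8.79, 9.54 and 11.3 CPM in NC. All 6 libraries of the siRNA groups lay above NC for PSMB9. In si_P300 the log2 fold change was 0.50 ± 0.136 for PSMB8 (edgeR adjusted p = 0.0179) and 0.77 ± 0.187 for PSMB9 (edgeR adjusted p = 0.00977), so both rose. Without si_P300 replicate 1 the values were 0.63 and 0.92, and without si_P300 replicate 2 they were 0.35 and 0.55. In si_CSNK2B it was 0.14 ± 0.136 for PSMB8 (edgeR adjusted p = 0.437) and 0.48 ± 0.188 for PSMB9 (edgeR adjusted p = 0.0664). PSMB9 in si_CSNK2B passed in 8 of 19 alternatives (edgeR, DESeq2 or limma adjusted p of 0.0213 to 0.201), and in si_P300 in 19 of 19 (0.00158 to 0.0495). The call of PSMB8 in si_P300 was lost without si_P300 replicate 2 or 3 (edgeR adjusted p = 0.0561 and 0.0513) and without NC replicate 1 or 2 (0.0682 and 0.0863, within 0.00154 to 0.0863).

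Set against the constitutive subunits, the immunoproteasome subunits were minor species. The ratio of PSMB9 to PSMB6 in TPM was 0.0782, 0.0894 and 0.0795 in si_CSNK2B, and 0.0830, 0.137 and 0.0993 in si_P300, against 0.0543, 0.0650 and 0.0660 in NC. Both siRNA groups lay above NC, by 0.42 in si_CSNK2B and 0.76 in si_P300 on the log2 scale (0.92 without si_P300 replicate 1 and 0.56 without si_P300 replicate 2). The ratio of PSMB8 to PSMB5 was 0.203, 0.218 and 0.209 in si_CSNK2B, and 0.246, 0.281 and 0.270 in si_P300, against 0.232, 0.232 and 0.239 in NC. Here si_CSNK2B lay below NC (-0.16) and si_P300 above it (0.18, or 0.23 without si_P300 replicate 1 and 0.14 without si_P300 replicate 2), with no overlap, and these 4 differences each had an exact permutation p of 0.1 and 0.214 adjusted over 15. PSMB5 itself read 214, 218 and 219 CPM in si_CSNK2B, 191, 248 and 217 CPM in si_P300, and 175, 166 and 189 CPM in NC. It did not pass in either comparison with all 9 libraries fitted, and passed as higher in both without si_P300 replicate 1. A ratio shows unequal change of the 2 genes and not which of them changed.

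**Figure D3:**
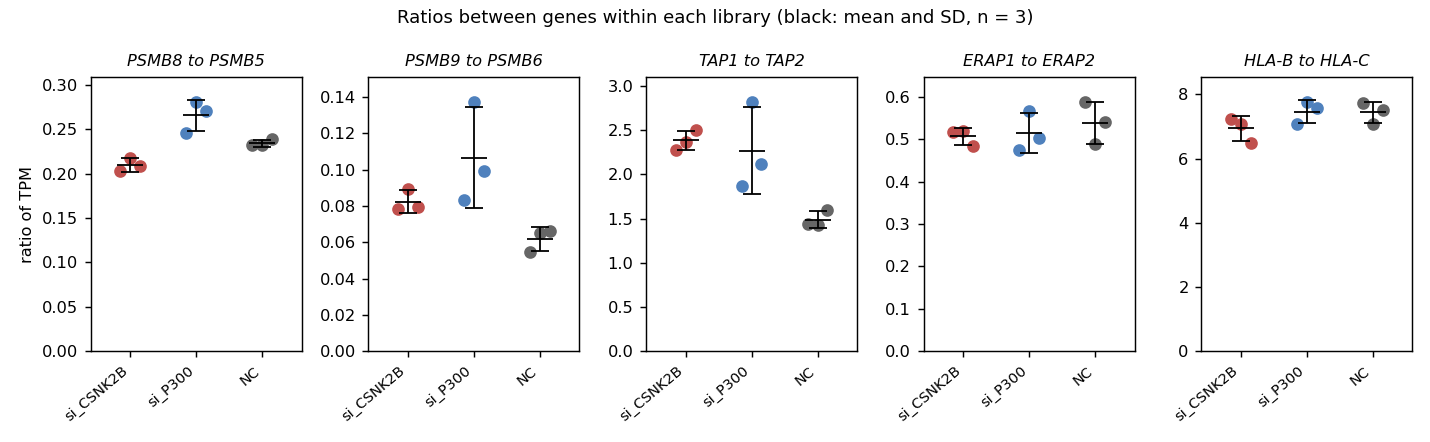
Ratio of TPM of 2 genes within each library (vertical axes, from 0) in si_CSNK2B, si_P300 and NC, with the mean and SD of 3 libraries in black. TAP1 to TAP2 lies at 2.28 to 2.50 in si_CSNK2B and 1.87 to 2.82 in si_P300, against 1.42 to 1.60 in NC, while ERAP1 to ERAP2 and HLA-B to HLA-C overlap between all groups.

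ERAP1 and ERAP2 trim the amino end of peptides to the length that heavy chains bind. ERAP1 read 21.4, 25.8 and 20.4 CPM in si_CSNK2B, 32.0, 35.5 and 33.0 CPM in si_P300, and 31.3, 29.9 and 28.5 CPM in NC. The 3 groups did not overlap, in the order si_CSNK2B, NC, si_P300. ERAP2 read 42.9, 51.9 and 43.6 CPM in si_CSNK2B, 69.1, 63.7 and 67.9 CPM in si_P300, and 55.6, 63.8 and 55.3 CPM in NC. All si_CSNK2B libraries were below NC, while si_P300 overlapped NC at its lowest library. ERAP1 fell in si_CSNK2B (-0.41 ± 0.117, edgeR adjusted p = 0.0184), as did ERAP2 (-0.34 ± 0.110, edgeR adjusted p = 0.0336). In si_P300 the log2 fold change was 0.16 ± 0.116 for ERAP1 (edgeR adjusted p = 0.315) and 0.20 ± 0.109 for ERAP2 (edgeR adjusted p = 0.187). It was 0.19 and 0.18 without si_P300 replicate 1, and 0.12 and 0.23 without si_P300 replicate 2. The ratio of ERAP1 to ERAP2 in TPM was 0.507 ± 0.0200 in si_CSNK2B, 0.515 ± 0.0476 in si_P300 and 0.539 ± 0.0494 in NC (SD, n = 3 each), with exact permutation p of 0.4 in si_CSNK2B against NC and 0.6 in si_P300 against NC. The call of ERAP1 was lost without si_CSNK2B replicate 1 or 3 or NC replicate 1 (edgeR adjusted p = 0.0528, 0.0669 and 0.0749, where 19 alternatives spanned 0.00723 to 0.0749). That of ERAP2 passed in 9 of 19 alternatives (adjusted p of 0.0164 to 0.151), and was lost without si_CSNK2B replicate 1 or 3 or any 1 of the 3 NC libraries.

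Single libraries moved several members together. In si_P300, replicate 2 was the highest of the 3 for 7 of 9 members and replicate 1 the lowest for 8 of 9, while over all tested genes these shares were 38.1% and 38.5%. ERAP2 was the exception to both, with replicate 1 highest and replicate 2 lowest, and TAP2 was highest in replicate 3. In si_P300 replicate 2 the log2 level above the NC mean was 1.14 for PSMB9, 0.92 for TAP1, 0.78 for B2M, 0.75 for PSMB8, 0.65 for HLA-B and 0.59 for HLA-C, against 0.03 for TAP2. In si_CSNK2B, replicate 2 was highest for 6 of 9 members (32.2% of all genes), and in NC, replicate 3 was highest for 6 of 9 (34.9%).

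**Figure D4:**
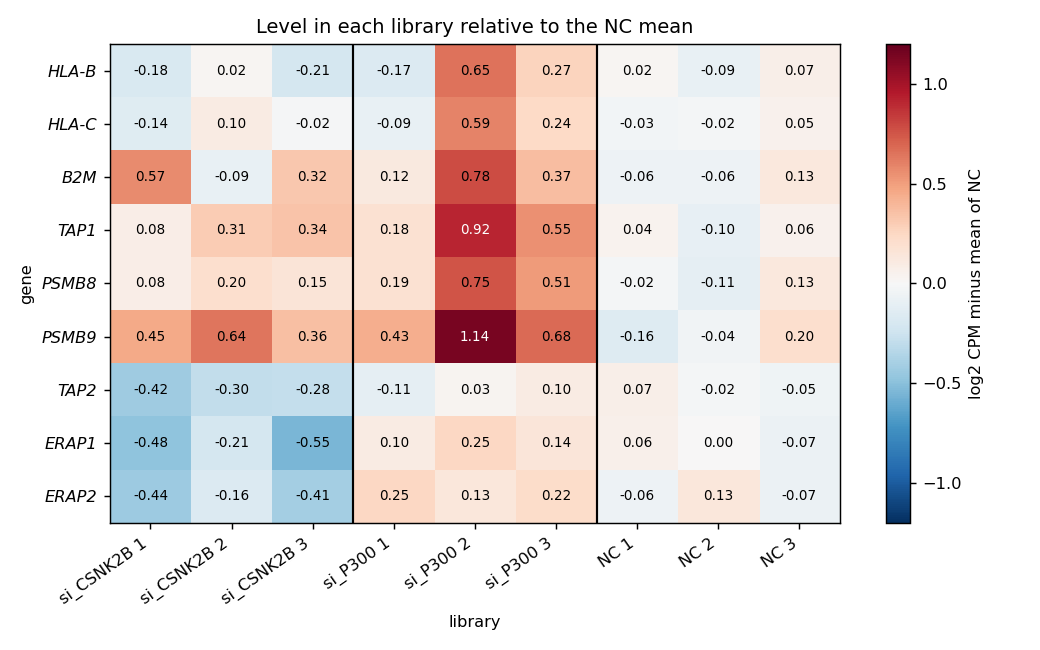
Log2 CPM of each gene (rows) in each library (columns) minus the mean of the 3 NC libraries, with the value printed in each cell. HLA-B, HLA-C, B2M, TAP1, PSMB8 and PSMB9 peak in si_P300 replicate 2, and TAP2, ERAP1 and ERAP2 are below 0 in all 3 si_CSNK2B libraries.

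The genes most like each member were found as those with the smallest root mean square difference of log2 CPM, centred on each gene's mean, over the 9 libraries. HLA-B and HLA-C were each other's nearest of 13128 other genes (0.0775), as were ERAP1 and ERAP2 (0.0989). Genes outside the pathway followed closely, with SP5 (0.0793) for HLA-B and CRTAP (0.0873) for HLA-C. For ERAP1 the second nearest was DHRS3 (0.123), and for ERAP2 it was POC1B-GALNT4 (0.114). PSMB8 was the nearest to TAP1 (0.0807), and TAP1 the second nearest to PSMB8 after C11orf52 (0.0730). The median distance of all genes to a member was 0.298 to 0.438. TAP1 was next followed by UBE2L6 (0.0873), the conjugating enzyme of the interferon-induced modifier ISG15. For PSMB9 the nearest were PLEKHF1 (0.0899), HLA-F (0.110) and TUBB2A (0.114), for B2M KNOP1 (0.116), SAMHD1 (0.116) and TRABD2A (0.121), and for TAP2 FHIP1A (0.0677), FKBP15 (0.0783) and IRF1 (0.0865). These distances describe 9 libraries that share 3 groups, and the HLA genes can share reads.

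Other genes of the pathway were read from lists of fixed membership. Each list's counts are to be read against the shares of all tested genes, 16.2% higher and 17.8% lower in si_CSNK2B (34.0% in either direction) and 13.6% higher and 14.7% lower in si_P300 (28.3%). Among 8 other class I and class I-like heavy chains, of which 6 were tested, 1 rose in si_CSNK2B and 2 rose in si_P300, and none fell. HFE, a class I-like regulator of iron uptake, rose in both (0.35 ± 0.124 and 0.43 ± 0.123, edgeR adjusted p = 0.0448 and 0.0216). With 1 library left out, these calls did not all hold. No gene of the list rose in si_CSNK2B without si_CSNK2B replicate 1, 2 or 3, si_P300 replicate 3, or NC replicate 2 or 3. In si_P300 none rose without NC replicate 2. HLA-F, a nonclassical heavy chain, rose in si_P300 to 34.9, 55.9 and 39.3 CPM, against 25.4, 23.7 and 29.3 CPM in NC (0.73 ± 0.183, edgeR adjusted p = 0.0120), and stood at 0.37 in si_CSNK2B. In si_P300 it was 0.86 without si_P300 replicate 1 and 0.50 without si_P300 replicate 2, and passed in both. HLA-E, a nonclassical heavy chain that inhibits natural killer cells, did not pass in si_CSNK2B (-0.16 ± 0.124) or si_P300 (-0.01 ± 0.123). The list's median was 0.02 in si_CSNK2B and 0.04 in si_P300.

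Of 7 tested genes of the peptide loading complex and peptide editing, 1 rose in each comparison and none fell, with medians of -0.04 in si_CSNK2B and 0.0049 in si_P300. That gene was CALR, a chaperone that holds the assembling class I molecule and also folds glycoproteins at large (0.84 ± 0.143 and 0.88 ± 0.143, edgeR adjusted p = 0.00101 and 0.001003). TAPBP, which encodes tapasin, the bridge between heavy chain and transporter, read 117, 109 and 145 CPM in si_CSNK2B, 141, 153 and 118 CPM in si_P300, and 114, 107 and 108 CPM in NC. It did not pass (edgeR adjusted p = 0.301 and 0.0773).

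Of 6 other immunoproteasome and activator genes, 1 rose in si_CSNK2B and 2 in si_P300, with medians of 0.18 and 0.24. PSME2, a subunit of the interferon-induced proteasome activator PA28, rose in both (0.60 ± 0.102 and 0.66 ± 0.102, edgeR adjusted p = 9.71e-04 and 7.24e-04). PSMB10, the third immunoproteasome catalytic subunit, read 12.0, 14.6 and 13.6 CPM in si_CSNK2B, 13.3, 15.6 and 18.3 CPM in si_P300, and 10.5, 11.9 and 11.1 CPM in NC. It rose in si_P300 (0.50 ± 0.151, edgeR adjusted p = 0.0292), as PSMB8 and PSMB9 did, with 0.61 without si_P300 replicate 1 and 0.50 without si_P300 replicate 2 (edgeR adjusted p = 0.0091 and 0.0488). None of the 3 constitutive catalytic subunits passed in either comparison with all 9 libraries fitted. Without si_P300 replicate 1, PSMB5 passed as higher in si_CSNK2B (0.29, edgeR adjusted p = 0.0274) and in si_P300 (0.39, edgeR adjusted p = 0.0144). Without si_P300 replicate 2 it passed in si_CSNK2B (0.29, edgeR adjusted p = 0.0352) and not in si_P300 (0.21, edgeR adjusted p = 0.186). Of 8 other peptidases, 2 rose and 1 fell in si_CSNK2B, and 3 rose and 1 fell in si_P300. LAP3, an interferon-inducible leucine aminopeptidase, rose in both (0.46 ± 0.143 and 0.43 ± 0.143), as did THOP1, an oligopeptidase known to destroy antigenic peptides (0.27 ± 0.0930 and 0.34 ± 0.0928). With 1 library left out, no peptidase of the list rose in si_CSNK2B without si_CSNK2B replicate 1 or 2, or NC replicate 1 or 2. In si_P300 none rose without NC replicate 1. The medians of the peptidases were -0.02 and 0.01.

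Of 21 transcription factors known at class I promoters, 6 rose and 9 fell in si_CSNK2B, and 5 rose and 5 fell in si_P300, with medians of -0.25 and -0.13. The 15 of 21 and 10 of 21 called stand beside 34.0% and 28.3% of all tested genes, and nothing is drawn from the difference. RFX5, a subunit of the RFX complex that binds the X box of MHC promoters, rose in both (1.12 ± 0.136 and 0.77 ± 0.135, edgeR adjusted p = 1.06e-04 and 0.00172), as did USF1 (0.75 ± 0.106 and 0.57 ± 0.106). NFYC, of the CCAAT-binding factor NF-Y, fell in both (-0.71 ± 0.102 and -0.56 ± 0.102), as did ATF1 (-0.77 ± 0.121 and -0.64 ± 0.121). NLRC5, the transactivator of class I genes, read 30.4, 37.7 and 42.6 CPM in si_CSNK2B, 43.0, 41.0 and 38.9 CPM in si_P300, and 31.6, 34.4 and 29.6 CPM in NC. All si_P300 libraries lay above NC, and it did not pass in si_CSNK2B (0.21 ± 0.129, edgeR adjusted p = 0.221) or in si_P300 (0.36 ± 0.128, edgeR adjusted p = 0.0526). IRF1, which binds the ISRE of class I promoters, read 26.5, 31.5 and 33.7 CPM in si_CSNK2B, 33.9, 43.5 and 43.3 CPM in si_P300, and 40.05, 39.2 and 41.3 CPM in NC. It fell in si_CSNK2B (-0.40 ± 0.128, edgeR adjusted p = 0.0320) and stood at -0.00022 in si_P300 (edgeR adjusted p = 0.999).

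**Figure D5:**
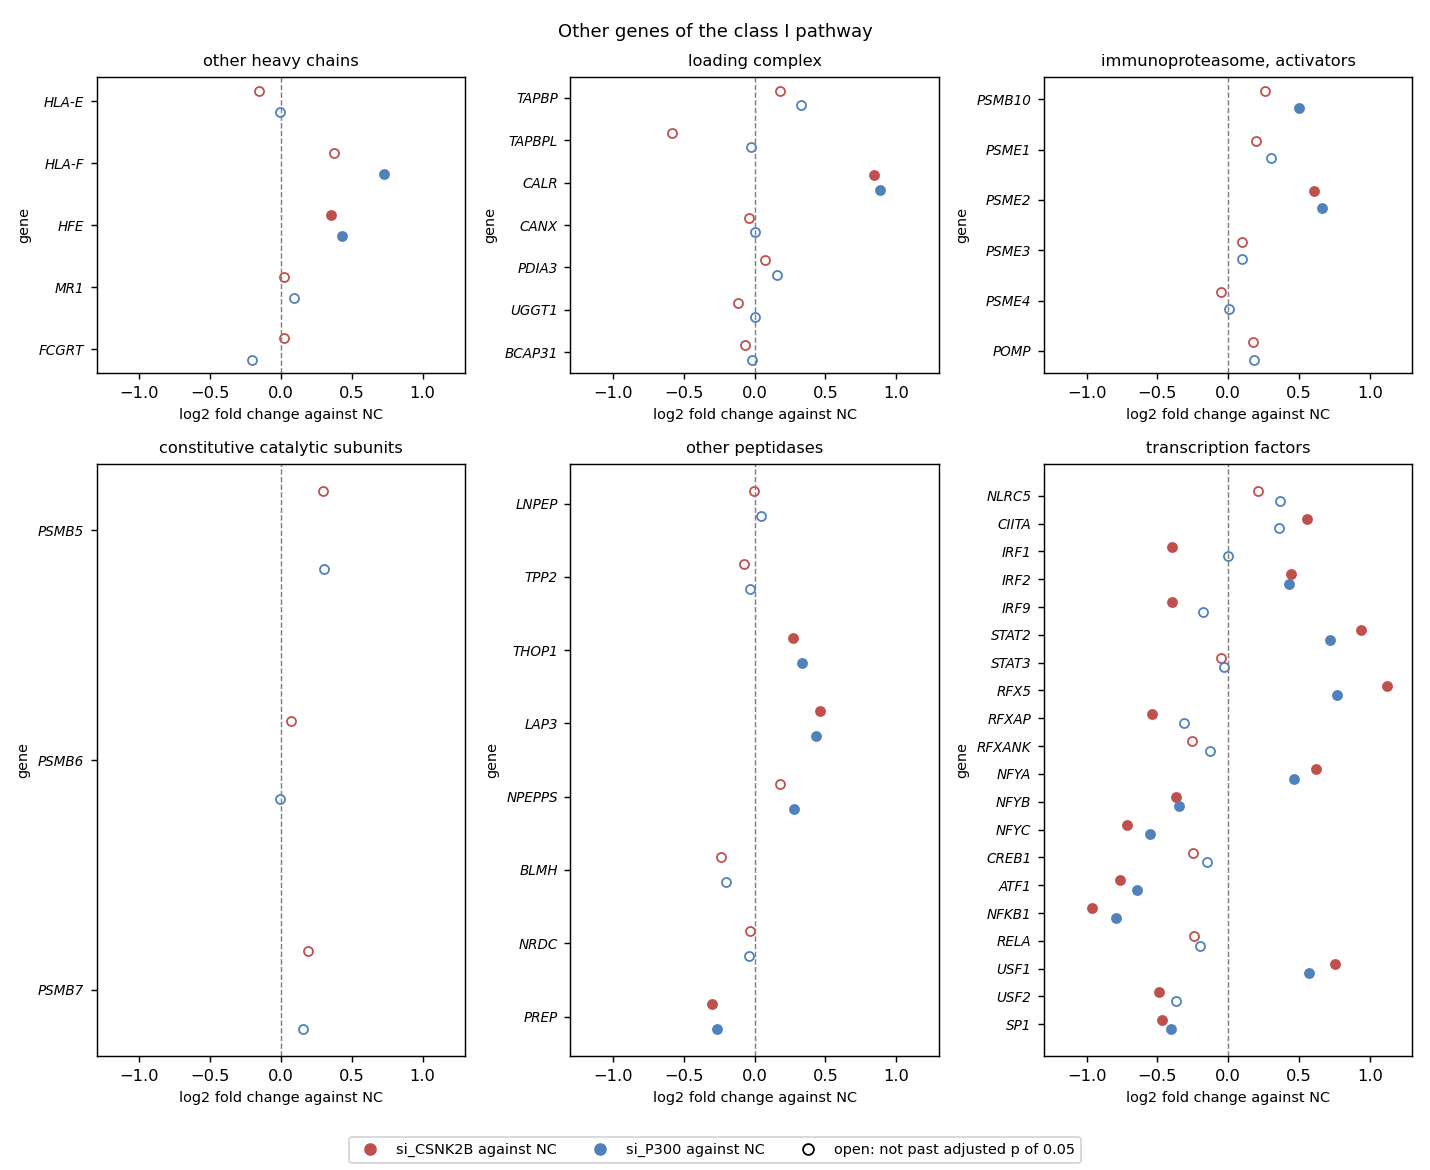
Log2 fold change against NC (horizontal axis) of other tested genes of the class I pathway, by list, in si_CSNK2B (red, upper point of each pair) and si_P300 (blue, lower point), where filled points passed an edgeR adjusted p of 0.05 over all tested genes. HLA-F and PSMB10 are filled in si_P300, CALR and PSME2 in both, and IRF1 in si_CSNK2B on the left of 0.

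Of 6 chromatin repressors known to silence class I genes, 1 fell in each comparison: EZH2, the methyltransferase of Polycomb complex PRC2 (-0.81 ± 0.122 and -0.69 ± 0.121, edgeR adjusted p = 4.56e-04 and 0.00179), with list medians of -0.13 and 0.07. Of 11 interferon receptor and signalling genes, 2 rose and 3 fell in each, with medians of 0.13 and 0.08. JAK1, a kinase of all interferon receptors, fell (-0.88 ± 0.0875 and -0.69 ± 0.0871), as did IFNGR2, a chain of the interferon-gamma receptor (-0.67 ± 0.108 and -0.59 ± 0.107), and PTPN2, a phosphatase that restrains this signal (-0.65 ± 0.108 and -0.42 ± 0.107). IFNAR2, a chain of the type I receptor, rose (0.44 ± 0.109 and 0.51 ± 0.108). IFNGR1, the other chain of the interferon-gamma receptor, went the opposite way to IFNGR2. Without si_P300 replicate 1 it rose in si_CSNK2B (0.48, edgeR adjusted p = 0.00194) and in si_P300 (0.69, edgeR adjusted p = 4.59e-04). Without si_P300 replicate 2 it rose in si_CSNK2B (0.48, edgeR adjusted p = 0.0233) and did not pass in si_P300 (0.39, edgeR adjusted p = 0.0946). Of 12 tested interferon-gamma induced genes, 3 rose and 6 fell in si_CSNK2B, and 2 rose and 2 fell in si_P300, with medians of -0.54 and -0.11. Their values ran from -2.73 to 2.96 in si_CSNK2B and from -1.96 to 1.83 in si_P300. IFI30, a thiol reductase of antigen processing, rose in both (1.02 ± 0.135 and 1.08 ± 0.135), and WARS1, a tryptophanyl-tRNA synthetase, fell in both (-2.38 ± 0.173 and -1.96 ± 0.171), as did CD274, the ligand PD-L1 (-1.19 ± 0.204 and -1.19 ± 0.203). Without si_P300 replicate 1, the chemokines CXCL10 and CXCL9 rose in si_CSNK2B (2.54 and 2.96) and si_P300 (2.30 and 2.26), while IDO1 fell in si_CSNK2B (-2.73). Without si_P300 replicate 2, CXCL10 and CXCL9 stood at 1.00 and 0.81 in si_P300 and did not pass. The 9 of 12 and 4 of 12 called stand beside the same 34.0% and 28.3%.

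The counts of these lists in si_P300 were also taken without each of the 2 libraries that stood apart, an alternative chosen after seeing the data. Without si_P300 replicate 1, 6 transcription factors rose and 6 fell, 4 interferon-gamma induced genes rose and 3 fell, and 3 interferon receptor and signalling genes rose and 3 fell. Without si_P300 replicate 2, 4 transcription factors rose and 5 fell, 1 interferon-gamma induced gene rose and 2 fell, and 1 interferon receptor and signalling gene rose and 4 fell. The other heavy chains had 2 rises without si_P300 replicate 1, and 2 rises and 1 fall without si_P300 replicate 2. The other immunoproteasome and activator genes had 3 and 2 rises, the other peptidases 2 and 2 with no fall, and CALR and EZH2 passed in the same direction in both. Without si_P300 replicate 1, PSMB5 rose as well, as did KDM1A of the repressor list (0.36, edgeR adjusted p = 0.0168). Neither passed without si_P300 replicate 2.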

How the data were processed

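Per the labels, 9 libraries of total RNA were sequenced as single-end 50 bp reads, and the submitters' processing notes name HISAT, Bowtie2 and GRCh38.p13. The counting tool, annotation and strand setting are not given in the sources used here. The authors deposited expected counts, under read count headers with values that need not be whole, and length-scaled TPM and FPKM, per the file headers. A normalized read count, a signal scaled by 1 factor per library, was deposited by the authors and not used here, nor were 12 columns of group averages. Expected counts were rounded and fitted in R 4.3.3 with edgeR 4.0.16: filterByExpr (minimum count 10), TMM, and 1 quasi-likelihood model over all 9 libraries with 3 two-sided contrasts. Adjusted p-values are Benjamini-Hochberg over 13129 tested genes, called under 0.05. SEs were derived from the F statistic of each gene, and intervals are 95%. Centred log2 CPM used a prior count of 2. Ratios were tested with exact permutation tests on log2 TPM ratios. The pipeline was tested on simulated data. Alternatives were DESeq2 1.42.0, RLE factors, library sizes alone, other filters, the 6 libraries compared, a replicate block, limma 3.58.1 on log2 TPM with pseudocounts of 1 and 0.1, and each library left out, which for the other lists was added after seeing the data. Named genes were all members, up to 4 genes per list with the lowest p, and NLRC5, IRF1 and TAPBP, and some genes that the rule names or the lists hold are not reported here. The members and the 14 other lists were chosen with earlier results of these data known.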

Additional observations from a re-analysis of the deposited data

How the results depend on the processing

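Over 19 alternatives for each of 9 members in 3 comparisons, 454 of 513 values kept their direction and their side of the threshold, 27 lost a call, 15 gained one and 17 changed sign, all of the last on values that were not called. The count of members called in si_CSNK2B against NC was 3, and 1 with library sizes alone and 0 to 4 with a library left out (0 without si_CSNK2B replicate 1 or NC replicate 1). In si_P300 against NC it was 3, and 5 with library sizes alone and 1 to 6 with a library left out (1 without si_P300 replicate 2, NC replicate 1 or NC replicate 2, and 6 without si_P300 replicate 1). In si_CSNK2B against si_P300 it was 0, and 2 by DESeq2. Over all genes, the counts ran from 2928 (without NC replicate 3) to 5166 in si_CSNK2B and from 2191 (without NC replicate 3, and 2322 without NC replicate 1) to 3882 in si_P300 with a library left out, and DESeq2 called 8 in the direct contrast. Signs changed for HLA-B in si_CSNK2B with library sizes alone (0.0037), and for HLA-C in si_CSNK2B with library sizes alone (0.11), the stricter filter (0.015), TPM plus 1 with and without a filter (0.025) and TPM plus 0.1 (0.026). They also changed for TAP2 in si_P300 by DESeq2 (-0.0083), with RLE factors (-0.0081) and without a filter (-0.016). With a library left out, HLA-C in si_CSNK2B ran from -0.0804 to 0.0396, TAP2 in si_P300 from -0.0390 to 0.0643, and B2M in the direct contrast from -0.320 to 0.0416. The log2 ratio of ERAP1 to ERAP2 in the direct contrast ran from -0.0779 to 0.0520, that of TAP1 to TAP2 from -0.0352 to 0.261, and that of HLA-B to HLA-C in si_P300 against NC from -0.0317 to 0.0427. The causes were not tested. Replicate numbers did not pair the libraries: same-numbered libraries of different groups had correlations of their deviations from -0.29 to 0.06, and 0 of 9 libraries correlated best with their own number. With the replicate block 2, 3 and 0 members and 3828, 3012 and 0 genes passed in the 3 comparisons, and ERAP2 in si_CSNK2B had an edgeR adjusted p of 0.0574. With 3 replicates per group, exact permutation tests cannot go below 0.1.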

Other observations

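Genes related to class I by structure or function but outside its loading pathway were read in the same fit. Of 7 tested class I-like ligands of NKG2D, an activating receptor of natural killer cells, 3 rose and 1 fell in si_CSNK2B, and 2 rose and none fell in si_P300, with medians of 0.46 and 0.41. Over all tested genes 34.0% were called in si_CSNK2B (16.2% higher) and 28.3% in si_P300 (13.6% higher), and nothing particular to the list is drawn from its counts. With a library left out, which was chosen after seeing the data, 1 to 3 of these ligands rose in si_CSNK2B and 2 to 3 in si_P300. MICA rose in both (0.70 ± 0.135 in si_CSNK2B and 0.65 ± 0.135 in si_P300, edgeR adjusted p = 0.00208 and 0.00447), as did MICB (0.71 ± 0.188 and 0.80 ± 0.188, edgeR adjusted p = 0.0128 and 0.00821), while ULBP3 fell in si_CSNK2B (-0.80 ± 0.205, edgeR adjusted p = 0.0111). MICA and MICB are close copies of each other, so the split of reads between them is uncertain. Of 4 tested MHC class II presentation genes none passed in si_CSNK2B, and 1 rose in si_P300, CTSS, a lysosomal protease (0.72 ± 0.187, edgeR adjusted p = 0.0142, and 0.54 with an edgeR adjusted p of 0.0511 without si_P300 replicate 2). The class II list summed to 11.05 to 15.4 CPM in si_CSNK2B, 14.2 to 20.2 CPM in si_P300 and 10.0 to 10.9 CPM in NC. None of 3 tested leukocyte markers, 2 tested fibroblast markers and 1 tested neuroendocrine marker passed in either comparison with NC. The 7 fibroblast markers summed to 48.8 to 61.8 CPM in si_CSNK2B, 46.7 to 55.3 CPM in si_P300 and 52.5 to 63.3 CPM in NC. Most of that sum was PDGFRA (25.5 to 43.2 CPM) and COL1A1 (13.5 to 26.4 CPM). COL1A2, COL3A1, PDGFRB, DCN and LUM did not exceed 0.593 CPM. The source of these transcripts was not tested.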
